A study of Homo sapiens with 4 samples.

Results

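Messenger RNA levels of 10 genes around the transcription coactivators YAP and TAZ were read in HCT116 cells, a human colorectal carcinoma line of epithelial origin, with and without depletion of NUDT21. The genes were taken by symbol from the deposited tables: the coactivator genes YAP1 and WWTR1 (which encodes TAZ), the DNA-binding partners TEAD1 and TEAD4, the Hippo kinases LATS1 and LATS2, and the targets CTGF, CYR61, AMOTL1 and AMOTL2. All 10 were among the 20003 genes of the tables. NUDT21 encodes a subunit of cleavage factor Im, which acts in the choice of mRNA polyadenylation sites. There were 2 knockdown libraries, shNUDT21 1 and shNUDT21 5, with the genotype given as NUDT21 knockdown, and 2 control libraries, shPLKO 1 and shPLKO 2, with the genotype given as WT. All 4 shared the line, the medium with serum and antibiotics, a treatment field of NONE and a time field of the same value with no unit. The series text gives shScramble as the control's name. Whether a number names a hairpin, a culture or a repeat library is not stated, so a p-value covers the variation among these 4 libraries alone, and that variation may be technical.

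The Hippo pathway is a kinase cascade in which the LATS kinases phosphorylate YAP and TAZ, which keeps them in the cytoplasm and marks them for degradation. Unphosphorylated YAP and TAZ enter the nucleus and bind TEAD proteins, which have a DNA-binding domain but need a coactivator to drive transcription. CTGF and CYR61, secreted matricellular proteins of the CCN family, are the most used readouts of this activity, and AMOTL2 and LATS2 are targets that feed back on it. YAP and TAZ act in regeneration and tumour growth in the intestinal epithelium. Only mRNA was measured here, so the amount, phosphorylation and location of the proteins are not given.

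TEAD proteins recognise the motif GGAATG. On the other strand of the DNA it is spelled CATTCC. Both spellings, and no other motif, were searched for in RefSeq windows of build GRCh38.p14 that run from 250 bases before to 50 bases after an annotated start site and so hold the proximal promoter and the first bases of exon 1. CYR61, TEAD1 and TEAD4 were not among the windows used. The other 7 genes had 10 windows, of which 4 windows, 1 each of 4 genes, held the motif. The CTGF window, shown whole because CTGF is the most changed of the 10 genes, lies at chr6:131951323-131951622 on the minus strand and holds it 3 times, at 169, 104 and 95 bases upstream of the start site. Stretches of 60 bases around the single match are shown for AMOTL2 (chr3:134374484-134374543, minus strand, 69 bases upstream), YAP1 (chr11:102110258-102110317, plus strand, 162 bases upstream) and LATS2 (chr13:21061545-21061604, minus strand, 9 bases past the start site). Sequences are written 5′ to 3′ on the gene strand, with the motif in capitals.
CTGF: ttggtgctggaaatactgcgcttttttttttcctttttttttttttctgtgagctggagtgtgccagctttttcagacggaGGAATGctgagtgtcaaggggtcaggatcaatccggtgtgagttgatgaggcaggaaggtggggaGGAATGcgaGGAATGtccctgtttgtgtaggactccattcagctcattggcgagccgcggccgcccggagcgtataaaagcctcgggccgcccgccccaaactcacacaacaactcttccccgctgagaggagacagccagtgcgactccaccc
AMOTL2: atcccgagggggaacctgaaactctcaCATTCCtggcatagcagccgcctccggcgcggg
YAP1: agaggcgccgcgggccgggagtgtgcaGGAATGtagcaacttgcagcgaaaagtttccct
LATS2: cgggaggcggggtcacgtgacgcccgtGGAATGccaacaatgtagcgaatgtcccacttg
Of all 35116 windows of this length, 14.0% held the motif at least once and 0.128% at least 3 times. A match of these letters is a description of the sequence and does not show that a TEAD protein binds there in these cells.

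**Figure D1:**
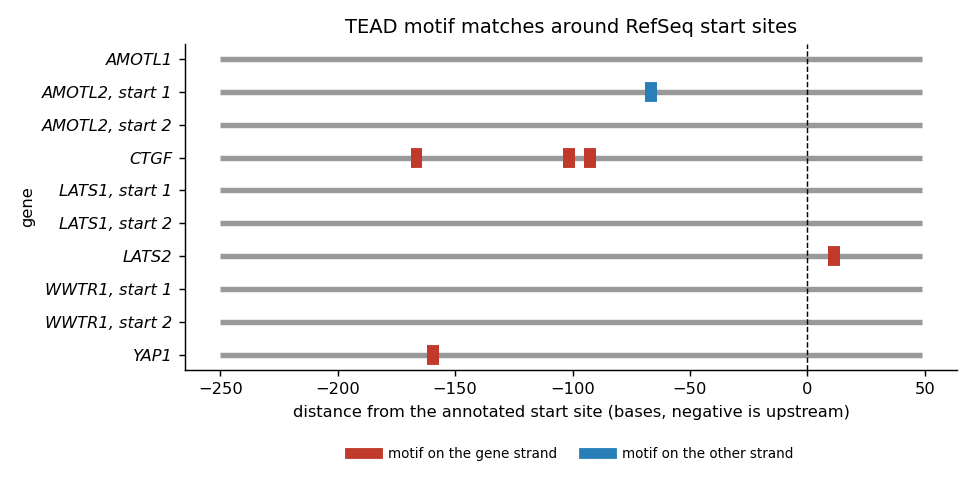
Positions of the TEAD motif in the 10 RefSeq start-site windows of 7 of the genes, with distance from the start site in bases on the horizontal axis and 1 window per row. CTGF has 3 matches upstream of its start, while AMOTL2, YAP1 and LATS2 have 1 each, and the windows of AMOTL1, LATS1 and WWTR1 and the second AMOTL2 window have none.

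The levels are RPKM, reads scaled to the length of the gene model and to the reads of the library. The gene model has a fixed length per gene, so a level could also shift with the length of the mRNA. Whether mRNA length differed between the groups was not tested. The total depth recovered from the values was between 29963980 and 30459886 reads per library. NUDT21 itself stood at 3.96 and 3.0 RPKM in the shNUDT21 libraries, against 24.3 and 26.9 RPKM in the shPLKO libraries. Of the epithelial markers, EPCAM had 162 and 180 RPKM in shNUDT21, against 130 and 132 RPKM in shPLKO. The keratin genes KRT8 and KRT18, also in that list, fell (log2 fold changes -1.62 and -1.60, limma adjusted p 0.0406 each), and the part of this in the results on the 10 genes was not tested. The summed level of 7 epithelial markers was 3426 and 4153 RPKM in shNUDT21, against 9871 and 9219 RPKM in shPLKO. Most of it came from KRT8, KRT18 and KRT19. Of the 6 markers tested, these 3 were lower and the other 3 higher in shNUDT21. CDH1 had 63.8 and 50.6 RPKM in shNUDT21, against 42.7 and 46.6 RPKM in shPLKO. CDX2 had 6.11 and 6.05 RPKM in shNUDT21, against 4.67 and 4.23 RPKM in shPLKO. EPCAM, CDH1, CDX2 and KRT19 did not pass (limma adjusted p 0.127, 0.22, 0.113 and 0.104). VIL1 was under 1 RPKM in all 4 libraries. Of 8 fibroblast markers, 7 were under 1 RPKM in every library (sums of 5.32 and 7.96 RPKM in shNUDT21, against 7.09 and 7.63 RPKM in shPLKO, most of it COL1A1), and the 4 endothelial markers summed to at most 0.572 RPKM. Of 4 leukocyte markers, 3 were under 1 RPKM, and CD68, which lysosomes of many cell types also use, ran from 24.2 to 92.2 RPKM.

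Among the 10 genes, CTGF and AMOTL1 fell and YAP1 rose in NUDT21-depleted cells. All 10 passed the level filter of a mean of at least 1 RPKM. The test was limma on log2(RPKM + 1), two-sided, with Benjamini-Hochberg adjustment over the 11124 genes tested and a threshold of 0.05. By this test 3 of the 10 genes were called, which is 30.0%, beside 5.82% of all genes tested. The genes and the lists below were chosen with earlier results of these data known. A share called among them is thus a description. Of the 10, 1 was called higher, beside 2.61% of all genes, and 2 were called lower, beside 3.21% of all genes. In 7 of the 10 the unadjusted p was under 0.05, beside 33.9% of all genes. The groups did not overlap in 8 of the 10, beside 66.2% of all genes. Of these, 4 were higher in shNUDT21, beside 32.8% of all genes, and 4 were lower, beside 33.4% of all genes. The median log2 fold change was -0.15 over the 10 genes and -0.003 over all genes tested. The calls lay close to the threshold, as did all calls of the comparison, whose lowest adjusted p was 0.0406.

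**Figure D2:**
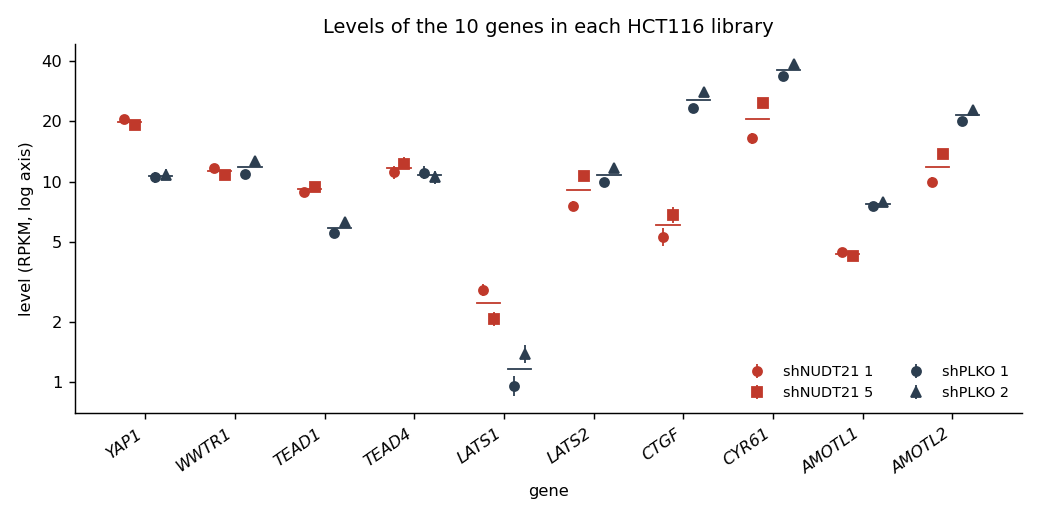
Level of each of the 10 genes in RPKM (log axis) in each library, with shNUDT21 left of shPLKO for each gene. Points are libraries, vertical bars are 95% counting intervals and short horizontal lines are the means of 2 libraries. YAP1, TEAD1 and LATS1 lie higher and CTGF, CYR61, AMOTL1 and AMOTL2 lie lower in both shNUDT21 libraries, while the groups of WWTR1 and LATS2 overlap.

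YAP1, which encodes the coactivator YAP, had 20.6 and 19.2 RPKM in shNUDT21 1 and 5, against 10.5 and 10.8 RPKM in shPLKO 1 and 2. Both knockdown libraries lay well above both controls, and within each group the counting intervals of the 2 libraries overlapped. The mean was 19.9 ± 0.935 RPKM in shNUDT21 and 10.7 ± 0.225 RPKM in shPLKO (SD, n = 2 each), a ratio of 1.86, and YAP1 rose by 0.84 on the log2 scale, with an SE of 0.12 and a limma adjusted p of 0.0421. In shNUDT21 1, YAP1 stood above 72.3% of the genes tested, against 54.7% in shPLKO 1. WWTR1, which encodes the YAP relative TAZ, had 11.7 and 10.8 RPKM in shNUDT21, against 10.9 and 12.6 RPKM in shPLKO. The groups overlapped, with a ratio of 0.958 and a log2 fold change of -0.05 (SE 0.14, limma adjusted p 0.805). Summed over YAP1 and WWTR1, the level was 32.3 and 30.1 RPKM in shNUDT21, against 21.4 and 23.5 RPKM in shPLKO. YAP1 made up 63.7% and 64.0% of that sum in shNUDT21, against 49.2% and 46.1% in shPLKO. Exons of YAP1 and WWTR1 each overlap an antisense gene in the GENCODE v29 annotation, and YAP1 has 2 named pseudogenes there, so some of their reads could come from those genes.

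TEAD1, a factor that brings YAP and TAZ to DNA, had 8.87 and 9.44 RPKM in shNUDT21, against 5.53 and 6.28 RPKM in shPLKO. Both knockdown libraries were above both controls, at 150% and 160% of the shPLKO mean. The log2 fold change of 0.56 (SE 0.13) had a limma adjusted p of 0.0674 and did not pass. TEAD4, a second member of the family, had 11.1 and 12.3 RPKM in shNUDT21, against 11 and 10.5 RPKM in shPLKO. The groups were only just apart, with a ratio of 1.09 (log2 fold change 0.11, SE 0.13, adjusted p 0.584). The 2 other family members were in a list of partner genes. Of these TEAD2 rose, with 9.59 and 9.23 RPKM in shNUDT21, against 4.56 and 4.70 RPKM in shPLKO (log2 fold change 0.89, SE 0.12, limma adjusted p 0.0416), and its exons overlap those of CD37 on the opposite strand. TEAD3 had 13.4 and 16.6 RPKM in shNUDT21, against 11.3 and 10.7 RPKM in shPLKO (adjusted p 0.141). The 4 TEAD genes summed to 43.0 and 47.6 RPKM in shNUDT21, against 32.5 and 32.1 RPKM in shPLKO. TEAD4 took 25.8% and 25.9% of that sum in shNUDT21, against 34.0% and 32.6% in shPLKO, and TEAD2 took 22.3% and 19.4% in shNUDT21, against 14.0% and 14.6% in shPLKO.

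LATS1, a kinase that phosphorylates YAP and TAZ, was the lowest of the 10 genes in both groups. It had 2.88 and 2.07 RPKM in shNUDT21 (792 and 564 reads), against 0.961 and 1.38 RPKM in shPLKO (266 and 381 reads). Both knockdown libraries were above both controls, and within each group the 2 libraries lay farther apart than their counting intervals. The ratio of means was 2.11, with a log2 fold change of 0.68 (SE 0.18, limma adjusted p 0.0844) that did not pass and that understates the ratio at this low level. LATS2, its paralogue and itself a target of YAP, had 7.58 and 10.6 RPKM in shNUDT21, against 9.90 and 11.7 RPKM in shPLKO. Here shNUDT21 5 lay between the controls and shNUDT21 1 below both. With a log2 fold change of -0.24 and an SE of 0.20 LATS2 did not pass (limma adjusted p 0.432), and without shNUDT21 1 the fold change was -0.03. Exons of LATS1 overlap an antisense gene, and those of LATS2 had no counted overlap with another annotated gene.

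CTGF, the matricellular target, had 5.32 and 6.81 RPKM in shNUDT21 (377 and 478 reads), against 23.2 and 28.1 RPKM in shPLKO (1654 and 1993 reads). Both knockdown libraries were far below both controls, at 20.8% and 26.6% of the shPLKO mean. CTGF stood above 33.9% and 41.4% of the genes tested in the shNUDT21 libraries, against 74.5% and 78.6% in the shPLKO libraries. The mean was 6.06 ± 1.05 RPKM in shNUDT21 and 25.6 ± 3.46 RPKM in shPLKO (SD, n = 2 each). On the log2 scale CTGF fell by 1.92, with an SE of 0.18 and a limma adjusted p of 0.0406.
CYR61, of the same CCN family, had 16.4 and 24.6 RPKM in shNUDT21, against 33.6 and 38.5 RPKM in shPLKO. Both knockdown libraries were below both controls, with shNUDT21 1 at 45.4% and shNUDT21 5 at 68.3% of the shPLKO mean. With a log2 fold change of -0.81 and an SE of 0.23, CYR61 did not pass (limma adjusted p 0.0881). Exons of CTGF overlap an antisense gene over 195 bases, and those of CYR61 had no counted overlap with another annotated gene.

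The angiomotin-like genes encode junction and actin scaffold proteins that bind YAP. AMOTL1 had 4.44 and 4.25 RPKM in shNUDT21, against 7.53 and 7.89 RPKM in shPLKO. The libraries of each group agreed closely, and the groups were apart, with a ratio of 0.563 (log2 fold change -0.70, SE 0.12, limma adjusted p 0.0486). AMOTL2, which has a TEAD motif upstream of a start site, had 9.98 and 13.7 RPKM in shNUDT21, against 20 and 22.8 RPKM in shPLKO. Its ratio of 0.552 was close to that of AMOTL1, but shNUDT21 1 and shNUDT21 5 differed more, and the log2 fold change of -0.82 (SE 0.19) had an adjusted p of 0.0661. Exons of AMOTL1 overlap an antisense gene, and those of AMOTL2 hold the pseudogene RPL39P5 on the same strand.

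The knockdown libraries did not stand at the same level for every gene. Counting intervals of shNUDT21 1 and shNUDT21 5 did not overlap for CTGF, CYR61, AMOTL2, LATS1 and LATS2, which is 5 of the 10. For CTGF, CYR61, AMOTL2 and LATS2 the higher of the 2 was shNUDT21 5, by 1.28, 1.5, 1.37 and 1.39 times. For LATS1 it was shNUDT21 1. The control libraries were apart in the same way for 7 of the 10, with shPLKO 2 above shPLKO 1 by between 1.14 and 1.44 times. Of all genes tested, 78.5% differed beyond counting error between the shNUDT21 libraries and 37.1% between the shPLKO libraries. Those shares rest on another measure than the overlap of intervals. NUDT21 was the lower of the 2 in shNUDT21 5.

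The calls did not hold in every fit. Without shPLKO 1 the limma adjusted p was 0.180 for CTGF, 0.510 for YAP1 and 0.532 for AMOTL1, with log2 fold changes of -2.05, 0.82 and -0.73. Without shPLKO 2 it was 0.315 for CTGF, 0.428 for YAP1 and 0.476 for AMOTL1, with log2 fold changes of -1.78, 0.86 and -0.68. Without shNUDT21 1 or shNUDT21 5 the log2 fold change of CTGF was -1.76 or -2.07. It was 0.79 or 0.89 for YAP1 and -0.73 or -0.68 for AMOTL1 in those fits. They take the spread from the shPLKO libraries alone, so calls in them are not given. After removal of a trend with GC content and length, the log2 fold changes were -1.83 for CTGF, -0.78 for AMOTL1 and 0.64 for YAP1. The limma adjusted p was then 0.0505, 0.0554 and 0.0677. Tested without a level filter, CTGF, AMOTL1 and YAP1 had 0.0653, 0.0783 and 0.0653. Removal of the GC and length trend also moved the log2 fold changes of genes that had not passed, to 0.34 for LATS1, 0.26 for TEAD1, 0.32 for TEAD4 and -0.31 for WWTR1. CYR61 was at -0.75 and AMOTL2 at -0.67 in that fit, close to their values without it.

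**Figure D3:**
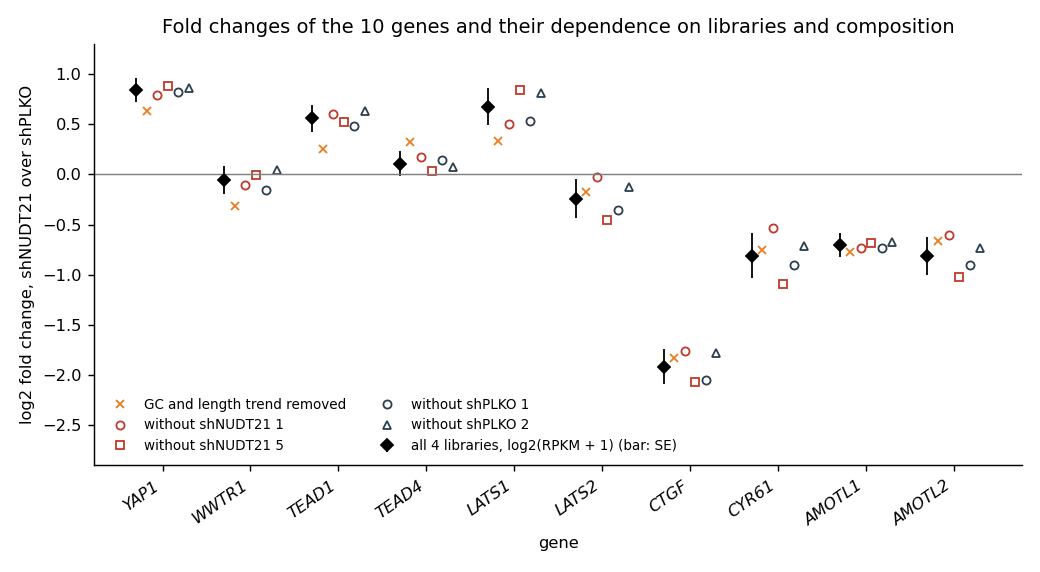
Log2 fold change of shNUDT21 over shPLKO for each of the 10 genes, from all 4 libraries (diamond, with SE), with the GC and length trend removed (cross), and without each library in turn (open symbols). Every gene but WWTR1 keeps its side of 0 in every setting drawn, with CTGF between -2.07 and -1.76. LATS2 comes as near to 0 as -0.03 and TEAD4 as near as 0.04, while WWTR1 crosses 0 without shPLKO 2.

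Ranked by level within shNUDT21, CYR61 (20.5 RPKM) and YAP1 (19.9 RPKM) stood highest with overlapping ranges. AMOTL2, TEAD4 and WWTR1 followed at 11.8, 11.7 and 11.3 RPKM, each overlapping the next, then TEAD1 and LATS2 at 9.15 and 9.08 RPKM, then CTGF, AMOTL1 and LATS1, each apart from the next. Within shPLKO, CYR61 (36.1 RPKM), CTGF (25.6 RPKM) and AMOTL2 (21.4 RPKM) stood highest and apart from each other. WWTR1, LATS2, TEAD4 and YAP1 lay between 11.8 and 10.7 RPKM with overlapping ranges, followed by AMOTL1, TEAD1 and LATS1, each apart from the next. By group mean YAP1 was thus 2nd of 10 in shNUDT21, against 7th of 10 in shPLKO, with overlapping ranges around both places. CTGF was 8th of 10 in shNUDT21, against 2nd of 10 in shPLKO.

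The 10 genes form 5 paralogue pairs, and RPKM sets their levels against each other per base of a fixed gene model. A ratio could thus also shift with the lengths of both mRNAs, which were not measured. The ratio of YAP1 to WWTR1 was 1.76 and 1.78 in shNUDT21, against 0.967 and 0.857 in shPLKO. The ratio of CTGF to CYR61 was 0.325 and 0.276 in shNUDT21, against 0.689 and 0.728 in shPLKO. The ratio of LATS1 to LATS2 was 0.380 and 0.196 in shNUDT21, against 0.0972 and 0.118 in shPLKO, and that of TEAD1 to TEAD4 was 0.801 and 0.767 in shNUDT21, against 0.501 and 0.599 in shPLKO. In these 4 pairs the groups were apart, with differences of the mean log2 ratio of 0.96, -1.24, 1.35 and 0.52. The ratio of AMOTL1 to AMOTL2 was 0.445 and 0.311 in shNUDT21, against 0.376 and 0.347 in shPLKO, so these groups overlapped (difference of the log2 ratio 0.04). With 2 libraries against 2, an exact permutation test, two-sided, cannot go below p = 0.333, which each of the 4 pairs gave, and for AMOTL1 and AMOTL2 p was 1.00. This test could not have passed for any of the 5 pairs, so it says nothing for or against a difference within a pair.

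**Figure D4:**
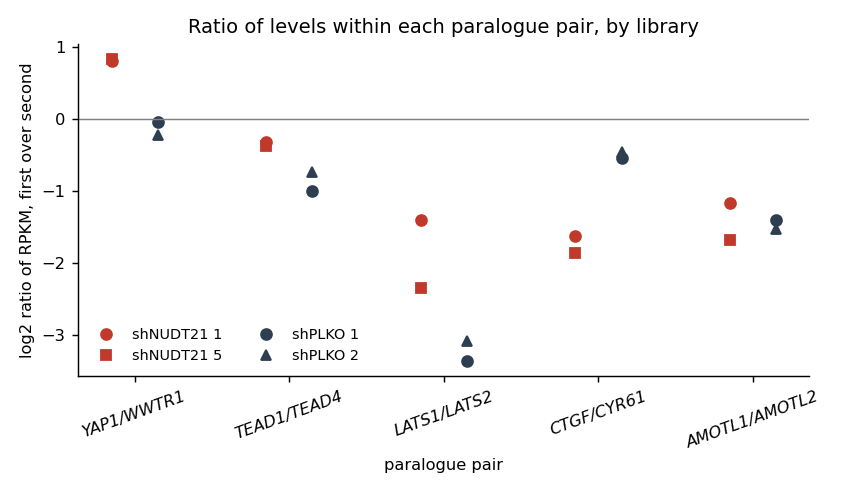
Log2 ratio of RPKM of the first to the second gene in each of 5 paralogue pairs, 1 point per library, with shNUDT21 left of shPLKO. The knockdown libraries lie above the controls for YAP1/WWTR1, TEAD1/TEAD4 and LATS1/LATS2, below them for CTGF/CYR61, and among them for AMOTL1/AMOTL2.

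Other targets of YAP and TAZ went in both directions. The list held 18 genes known as targets from other cells, of which 13 were tested. Of these, 1 rose, 1 fell and 11 did not pass, which is 15.4% called beside 5.82% of all genes tested. The median log2 fold change was 0.41, and 10 of 13 were positive, beside 49.8% of all genes. ANKRD1, an ankyrin repeat cofactor and a much used YAP target, fell, with 0.134 and 0.389 RPKM in shNUDT21 (8 and 23 reads), against 1.71 and 2.42 RPKM in shPLKO (103 and 145 reads). ANKRD1 fell by 1.28 on the log2 scale, with an SE of 0.18 and a limma adjusted p of 0.0421, and its log2 fold change was -2.66 with a pseudocount of 0.1. ANKRD1 met the level filter only through its shPLKO values, so it could enter the test only as a gene that was lower in shNUDT21, and its call and its place in the 15.4% are a description. GADD45A, a stress-induced gene that p53 and ATF4 also induce, rose, with 265 and 293 RPKM in shNUDT21, against 139 and 150 RPKM in shPLKO (log2 fold change 0.94, SE 0.14, adjusted p 0.0431).

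MYOF, a ferlin of the plasma membrane, had 30.0 and 29.8 RPKM in shNUDT21, against 20.2 and 21.2 RPKM in shPLKO (adjusted p 0.0674). MYOF did not pass. Of the 5 targets under the level filter, IGFBP3, named after its values were seen, had 0.289 and 0.444 RPKM in shNUDT21, against 1.19 and 1.17 RPKM in shPLKO, and was not tested. The calls of ANKRD1 and GADD45A were lost without shPLKO 1 (limma adjusted p 0.312 and 0.542), without shPLKO 2 (0.343 and 0.438) and with the GC and length trend removed (0.0541 and 0.0530). In those 3 fits the log2 fold change was -1.45, -1.11 and -1.38 for ANKRD1, and 0.89, 1.00 and 1.06 for GADD45A. Without shNUDT21 1 and without shNUDT21 5 it was -1.13 and -1.43 for ANKRD1, and 1.02 and 0.87 for GADD45A.

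Of the 20 genes of the Hippo core and its upstream inputs, all were tested and 0 were called (limma, 9 at an unadjusted p under 0.05, and 0 with voom), beside 5.82% of all genes called and 33.9% at an unadjusted p under 0.05. The median log2 fold change was 0.31, with 14 of 20 positive, beside 49.8% of all genes. MAP4K4, a kinase that acts on LATS1 and LATS2, had 21.9 and 28.8 RPKM in shNUDT21, against 13.9 and 14.6 RPKM in shPLKO (adjusted p 0.0622). TAOK1, a kinase upstream of the core, had 5.36 and 5.18 RPKM in shNUDT21, against 2.81 and 3.41 RPKM in shPLKO (adjusted p 0.0626). TAOK2, of the same family, had 7.10 and 8.94 RPKM in shNUDT21, against 13.7 and 13.1 RPKM in shPLKO (adjusted p 0.0637). NF2, which encodes the membrane scaffold merlin, had 9.49 and 12.4 RPKM in shNUDT21, against 6.5 and 7.01 RPKM in shPLKO (limma adjusted p 0.0854). The log2 fold changes of MAP4K4, TAOK1, TAOK2 and NF2 were 0.78, 0.61, -0.68 and 0.61. With the GC and length trend removed they were 0.65, 0.24, -0.52 and 0.75. STK3 and STK4, the kinases that phosphorylate LATS proteins, named after their values were seen, stood at 1.06 and 1.25 times the shPLKO mean (adjusted p 0.754 and 0.201).

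The STRIPAK complex holds a phosphatase that acts against the Hippo kinases. Of its 10 genes 9 were tested, and 1 rose (11.1% called, beside 5.82% of all genes), with a list median of 0.06. The gene was STRN3, a striatin scaffold, with 15.1 and 18.0 RPKM in shNUDT21, against 8.22 and 8.72 RPKM in shPLKO (log2 fold change 0.89, SE 0.14, limma adjusted p 0.0457), and its exons overlap those of COCH on the opposite strand. STRN, another striatin, had a ratio of 2.01, SLMAP, which links the complex to the Hippo kinases, 1.64 and STRIP2 1.90. The limma adjusted p was 0.0829, 0.0890 and 0.283. Their log2 fold changes were 0.64, 0.63 and 0.64. With the GC and length trend removed they were 0.27, 0.29 and 0.49. Among 10 TEAD cofactors and YAP-binding genes, 7 were tested and TEAD2 alone passed (14.3%, beside 5.82% of all genes), with a list median of 0.41. PTPN14, a phosphatase that binds YAP and is also in the target list, had 4.36 and 7.38 RPKM in shNUDT21, against 2.53 and 3.0 RPKM in shPLKO (adjusted p 0.0968). TP53BP2, a YAP-binding protein of the p53 pathway, had a ratio of 1.45 (adjusted p 0.0837). AMOT, the third angiomotin gene, had 1.09 and 1.01 RPKM in shNUDT21, against 1.54 and 1.67 RPKM in shPLKO (adjusted p 0.12). STRN3 and TEAD2 were no longer called without shPLKO 1 (limma adjusted p 0.503 and 0.483), without shPLKO 2 (0.416 and 0.415) and with the GC and length trend removed (0.0709 and 0.0505). In those 3 fits the log2 fold change was 0.85, 0.92 and 0.67 for STRN3, and 0.87, 0.91 and 1.08 for TEAD2. Without shNUDT21 1 and without shNUDT21 5 the log2 fold change was 1.01 and 0.76 for STRN3, and 0.86 and 0.91 for TEAD2.

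Matricellular genes other than CTGF and CYR61 were low in these cells. The highest was THBS1, named after its values were seen, with 4.27 and 3.69 RPKM in shNUDT21, against 4.08 and 4.4 RPKM in shPLKO. Of 15 listed, 5 were tested and 0 were called (limma, 0 at an unadjusted p under 0.05, and 0 with voom), beside 5.82% and 33.9% of all genes, with a list median of -0.19. SPP1 (osteopontin) had 1.71 and 0.938 RPKM in shNUDT21, against 2.21 and 2.02 RPKM in shPLKO (adjusted p 0.192). TNXB (tenascin X) stood at 0.771 and THBS3 (a thrombospondin) at 0.833 times the shPLKO mean (limma adjusted p 0.338 and 0.400). TNXB met the level filter only through its shPLKO values, with means of 0.962 RPKM in shNUDT21 and 1.25 RPKM in shPLKO. NOV, of the CCN family, had 3.86 and 1.46 RPKM in shNUDT21, against 1.65 and 1.21 RPKM in shPLKO (adjusted p 0.353). Targets of SRF and its MRTF cofactors, a pathway that responds to actin and shares CTGF and CYR61 as targets, were 14 in number, of which 12 were tested and 0 called (limma, 3 at an unadjusted p under 0.05, and 0 with voom), beside 5.82% and 33.9% of all genes. The list median was -0.04. ACTA2, smooth muscle actin, had 4.81 and 2.53 RPKM in shNUDT21, against 9.94 and 9.30 RPKM in shPLKO (adjusted p 0.0603). FHL1, a LIM protein, had a ratio of 0.561 and ZYX, the adhesion protein zyxin, a ratio of 1.86 (adjusted p 0.0762 and 0.0825). FLNA, filamin A, had 143 and 172 RPKM in shNUDT21, against 186 and 182 RPKM in shPLKO (adjusted p 0.345).

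**Figure D5:**
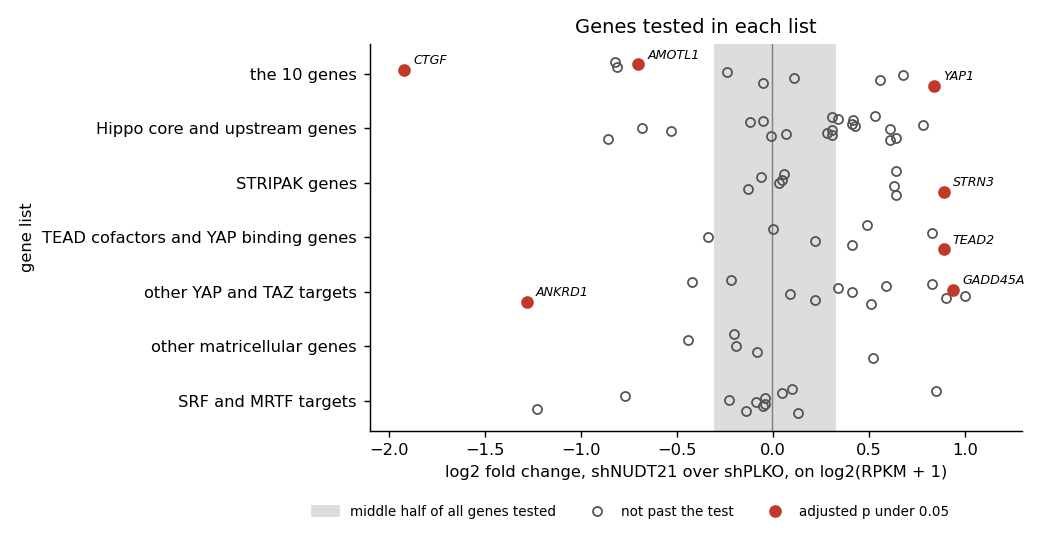
Log2 fold change of shNUDT21 over shPLKO for every tested gene of the 10 and of 6 lists, 1 point per gene, filled where the limma adjusted p was under 0.05. The grey band runs from -0.302 to 0.323 and holds the central part of all 11124 genes between their quartiles. The called genes are CTGF, AMOTL1 and ANKRD1 to the left and YAP1, STRN3, TEAD2 and GADD45A to the right.

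For each of the 3 called genes, the 3 genes nearest in pattern over the 4 libraries were found by the Euclidean distance of log2(RPKM + 1) after the shPLKO mean was taken away. For CTGF these were LRG1 (distance 0.258), TMEM59L (0.259) and TINAGL1 (0.445), with ratios of 0.174, 0.270 and 0.316. For AMOTL1 (ratio 0.563) they were MAFA, RPS6KA2 and RENBP, at distances of 0.0192 to 0.0352, with ratios of 0.574, 0.555 and 0.391. RENBP had 0.66 and 0.623 RPKM in shNUDT21, against 1.56 and 1.72 RPKM in shPLKO, and met the level filter only through shPLKO. For YAP1 (ratio 1.86) they were MED10, USP24 and ZNF644, at distances of 0.0523 to 0.0632, with ratios of 1.87, 2.52 and 2.13. The added 1 shrinks the change of a low gene, so a small distance does not mean a like ratio. The nearest genes of CTGF lay farther off than those of AMOTL1 and YAP1, and with 4 libraries many genes share a pattern.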

How the data were processed

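RNA was sequenced from 4 HCT116 libraries. The kit was SMARTer mRNA-Seq, on total RNA, per the labels' protocols. Bowtie 0.12.2 and build hg18 are named, without their use, per the submitters' processing notes. How reads were counted, on which annotation and whether by strand, is not given in the sources used here. RPKM is the unit inferred for the values the authors deposited, since the files name none. Each file held 20030 rows, and 27 rows with a date in place of a symbol were left out.

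Whole reads were recovered by searching the smallest step that makes a gene's values whole (tolerance 1e-06). Annotated transcript lengths then gave the library total, with 764 lengths at the same total and 42 at the next. A factor common to all 4 libraries cannot be seen, so recovered reads are the lowest possible, and intervals (95%, exact Poisson) cover counting error only. The 2 libraries of a group differed beyond counting error in 78.5% (shNUDT21) and 37.1% (shPLKO) of genes, so each was counted as 1 sample. Counting error alone does not tell repeat libraries of 1 RNA from separate cultures.

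Differences were tested on log2(RPKM + 1) by limma 3.58.1 (R 4.3.3, trended prior) over the 11124 genes whose mean reached 1 RPKM. There were 2 residual degrees of freedom and 2.71 from the prior. This scale understates fold changes of low genes. It was tested on simulated data. Tables were made with Python 3.11.15. Sequences came from RefSeq (GRCh38.p14) and gene lengths, GC content and overlaps from GENCODE v29, of another build than the notes name. Exon overlaps under a minimum number of shared bases were not counted. CTGF was matched to the RefSeq symbol CCN2, and listed CCN genes to the older symbols in the files. The genes and lists were chosen with earlier results of these data known. The text names all 10 genes, NUDT21, the called genes of each list filled up to 4 by lowest p, and the 3 nearest genes in pattern of each called gene. Of these, 1 gene that the rule would name among the other YAP and TAZ targets is not reported here. Alternatives were another level filter or none, a pseudocount of 0.1, no trend, median centring, removal of a GC and length trend (loess, 99.7% of genes), voom on recovered reads, and each library left out. No set was tested as a set.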

Additional observations from a re-analysis of the deposited data

How the results depend on the processing

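With 2 libraries a group, the calls rest on small changes in the estimated spread. Genes past the test over all genes were 290 higher and 357 lower. With no filter on low values they were 0 and 0 (limma, 4762 at an unadjusted p under 0.05), and with a mean of at least 5 RPKM, which tests fewer genes, 198 and 233. With the GC and length trend removed they were 12 and 1. Leaving out a library gave between 0 and 3766 higher and between 0 and 4005 lower. A lone shNUDT21 or shPLKO library is then assumed to vary like the other group, whose spread was small in shPLKO and large in shNUDT21. Of the 10 genes, 3 were called, 0 with no filter, 0 with the trend removed (5 at an unadjusted p under 0.05), and between 0 and 8 with a library left out. Of the lists, STRIPAK and the TEAD cofactors had 1 call each, 0 with no filter and 0 with the trend removed. With a library left out they had between 0 and 5 and between 0 and 7. The other YAP and TAZ targets had 2 calls, 1 at a mean of at least 5 RPKM, where ANKRD1 was not tested, 0 with no filter, 0 with the trend removed and between 0 and 12 with a library left out. The Hippo, matricellular and SRF lists had 0 calls, and with a library left out between 0 and 15, 0 and 2, and 0 and 9. The cause of these shifts was not tested beyond the number of genes or libraries in each fit. The highest counts with a library left out all came from the fits without a shNUDT21 library. In those fits most of the 11124 genes tested were also called. A high count there thus does not set the 10 genes or a list apart from all genes. With a pseudocount of 0.1, no trend, median centring or voom, each of CTGF, AMOTL1 and YAP1 kept its call, with the adjusted p for CTGF between 0.0377 and 0.0426. WWTR1 reversed without shPLKO 2, to a log2 fold change of 0.05, with a range of -0.15 to 0.05 over the libraries left out. The AMOTL1 to AMOTL2 difference reversed to -0.02 without shPLKO 2 and -0.21 without shNUDT21 1, with a range of -0.21 to 0.30 over the libraries left out. The other 4 pair differences kept their sign. Median centring shifted no library by more than 0.033 on the log2 scale. No paired analysis was possible because the groups share only the number 1, and the labels do not say that it pairs libraries. LATS1 and ANKRD1 rest on few reads, 266 in shPLKO 1 for LATS1 and 8 in shNUDT21 1 for ANKRD1.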

Other observations

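Several genes of the lists had a much different level in the 2 knockdown libraries. They are given as values and were chosen after their values were seen. WWC1, which encodes the Hippo scaffold KIBRA, had 9.83 RPKM in shNUDT21 1 and 35.9 RPKM in shNUDT21 5, against 34.6 and 35.9 RPKM in shPLKO 1 and 2. The low value was thus in shNUDT21 1 alone, from 2243 reads. F3, which encodes tissue factor and is a YAP target, had 28.5 and 91.2 RPKM in shNUDT21 1 and 5, against 24.9 and 25.5 RPKM in shPLKO. AXL, a receptor kinase and YAP target, had 21.2 and 39.3 RPKM in shNUDT21, against 15.1 and 14.9 RPKM in shPLKO. Neither F3 nor AXL passed the test (limma adjusted p 0.267 and 0.119). For F3, AXL, CTGF, CYR61 and AMOTL2 the higher of the 2 knockdown values was in shNUDT21 5. For CTGF, CYR61 and AMOTL2 that value is the one nearer to the controls, and for F3 and AXL it is the one farther from them.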
